A study of Danio rerio with 13 samples.

Results

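A set of 6 genes known from the yolk, liver and intestine of the zebrafish were followed in the dissected tail, where those organs should be absent. The genes were apoa1a, apobb.1, afp4, rbp4, cpn1 and fabp1b.1. They were chosen by name, with earlier results of these data known. Every probe in the authors' lists of called probes whose RefSeq mRNA accession belongs to one of these 6 genes was used, which gave 7 probes of 19523 in the table of all comparisons. Of these, 2 probes belonged to afp4 and 1 to each of the other genes. A probe had to be called in at least 1 comparison to enter, so some change was certain in advance for each of them.

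Wild type WIK embryos had been injected into the yolk at an early cleavage stage with a combination of morpholinos against the type 1 and type 2 deiodinases (D1D2MO), with a morpholino against the type 3 deiodinase gene dio3b (D3MO), or with the standard control (SCMO). All larvae were thus injected, and all were sampled at 72 hours post fertilization (hpf). Morpholinos are synthetic antisense oligomers. Those used here block translation, so the mRNA of a deiodinase does not show the knockdown, and they act transiently in the whole embryo. Larvae were cut by hand into head, abdomen and tail. Yolk, liver and the whole gut stayed with the abdomen according to the methods of the study. RNA of pooled tails was hybridised on 13 arrays with 2 colours. Of these, 5 paired D1D2MO with SCMO, 4 paired D3MO with SCMO and 4 paired D3MO with D1D2MO. The dyes were not evenly balanced, with Cy5 in 4 of 9 D1D2MO, 5 of 8 D3MO and 4 of 9 SCMO channels and Cy3 in the rest. The labels give pools of 20 larvae, while the methods give a larger pool. With 4 biological replicates in each group and more hybridisations than replicates, the p-values may in part measure technical spread. No value per array was used here, so each result is a log2 fold change with its standard error (SE) from the authors' fit. Which arrays and terms that fit held, such as a dye term, is not settled.

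Thyroid hormone circulates mainly as T4. Type 1 and type 2 deiodinases convert T4 to the active hormone T3, and type 3 deiodinase inactivates both. In the zebrafish larva of this age, yolk lipid is packed into lipoproteins by the yolk syncytial layer and then by liver and intestine, and these tissues release apolipoproteins, retinol-binding protein and other plasma proteins into the blood. The mRNA of such proteins is commonly used to mark these organs, whereas muscle, skin, notochord, spinal cord and fin make up the tail. Expression in other larval tissues is known for some of them, and rbp4 is also expressed in larval skin.

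Both of the study's thresholds had to be met for a probe to be called, an adjusted p under 0.05 and a change of more than 1.5-fold up or down, or 0.585 on the log2 scale. In D1D2MO, 7 of 7 carrier gene probes were higher than in SCMO, by 0.60 to 1.33 (log2) with a median of 0.83. Over all probes 2.35% were called higher in this comparison and the median was 0.00. The rule required a call in some comparison, so the number of calls is given as a description. In D3MO, 0 of 7 probes were called against SCMO, with log2 fold changes from -0.41 to 0.39 and a median of -0.15. Of all probes only 1.4% were called higher and 0.579% lower there, so 0 of 7 is near that share. Compared directly, 6 of 7 probes were lower in D3MO than in D1D2MO, with log2 fold changes down to -1.74, against 2.28% of all probes called lower. This comparison equals D3MO vs SCMO minus D1D2MO vs SCMO. All 7 probes were called higher in the latter, so lower values here were favoured in advance. The SE of the carrier gene probes was between 0.05 and 0.07, against a median of 0.06 over all probes.

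**Figure D1:**
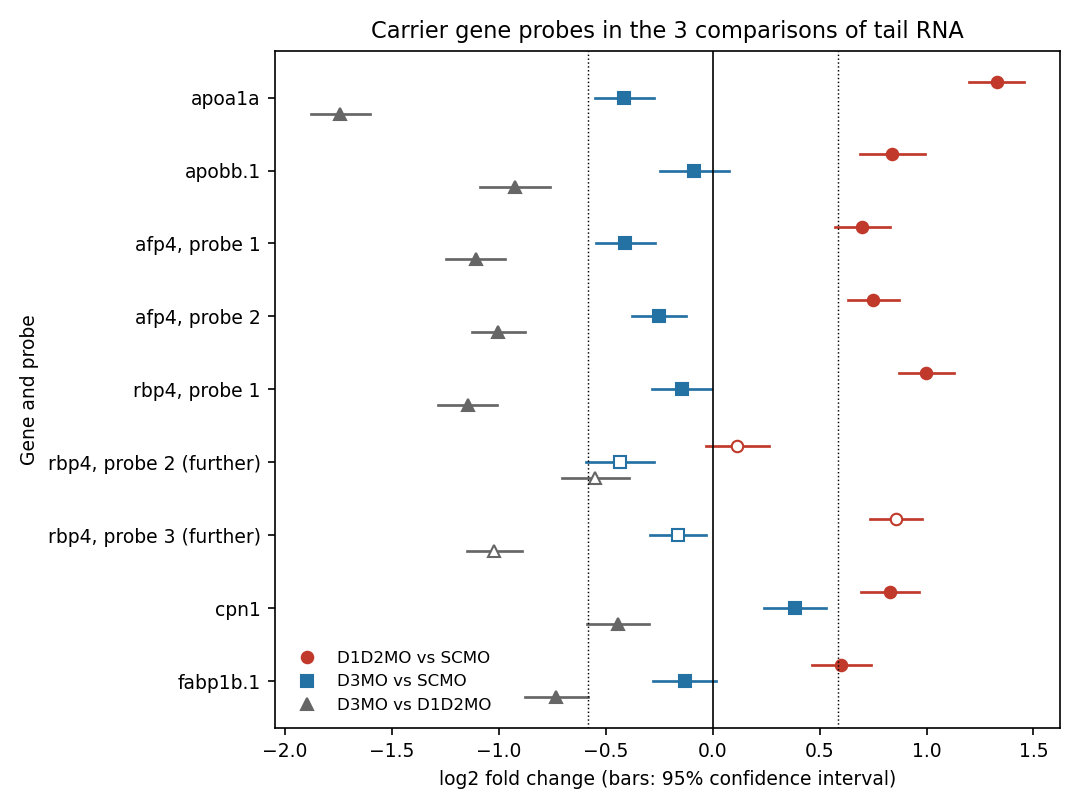
Log2 fold change (horizontal axis) of each carrier gene probe (vertical axis) in D1D2MO vs SCMO (red circles), D3MO vs SCMO (blue squares) and D3MO vs D1D2MO (grey triangles), with 95% confidence intervals as bars and the 1.5-fold thresholds as dotted lines. Filled symbols are the 7 probes of the 6 genes and open symbols the further rbp4 probes. All filled red circles lie between 0.60 and 1.33, and the filled blue squares lie between -0.41 and 0.39.

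The apolipoproteins come first, as the structural proteins of the particles that carry lipid from the yolk. apoa1a encodes apolipoprotein A-I, the main protein of high-density lipoprotein. Its probe was higher in D1D2MO by 1.33 ± 0.06 (SE, 95% confidence interval 1.20 to 1.46), a 2.51-fold difference (limma, adjusted p = 4.29e-06). In D3MO it stood at -0.41 ± 0.06, with an interval of -0.55 to -0.28 (adjusted p = 0.00181), a difference below the fold threshold. D3MO was 3.34-fold below D1D2MO, at -1.74 ± 0.06 (adjusted p = 1.60e-06). apoa1a was the carrier gene that differed most in D1D2MO, where it held rank 29 from the top of 19523 probes, and in the direct comparison, where it held rank 5 from the bottom.

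apobb.1 encodes an apolipoprotein B, the scaffold of very low-density lipoprotein and the form in which yolk lipid is exported. It was higher in D1D2MO by 0.84 ± 0.07, or 1.79-fold (adjusted p = 5.81e-05). In D3MO it stood at -0.09 ± 0.07, and the interval of -0.25 to 0.08 covered no change (adjusted p = 0.404). The direct comparison gave -0.93 ± 0.07, a 1.90-fold lower level in D3MO than in D1D2MO (adjusted p = 5.98e-05).

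afp4 encodes an apolipoprotein-like protein named for the type IV antifreeze proteins of other fish and is expressed in the yolk syncytial layer of the zebrafish. Both of its probes were called in the same comparisons. Probe 1 was higher in D1D2MO by 0.70 ± 0.06 and probe 2 by 0.75 ± 0.05 (adjusted p = 6.20e-05 and 2.67e-05). In D3MO they stood at -0.41 ± 0.06 and -0.25 ± 0.06 (adjusted p = 0.00189 and 0.0106), below the fold threshold. Between the knockdowns probe 1 gave -1.11 ± 0.06 and probe 2 gave -1.0 ± 0.06, so D3MO was 2.15-fold and 2.0-fold below D1D2MO (adjusted p = 1.55e-05 and 1.58e-05). The probes of afp4 differed from each other by 0.05 in D1D2MO vs SCMO, with an interval of -0.12 to 0.23.

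rbp4 encodes the plasma retinol-binding protein, which carries vitamin A from its store in the liver. Its probe was higher in D1D2MO by 1.0 ± 0.06, which is 2.0-fold (adjusted p = 1.03e-05). In D3MO it stood at -0.15 ± 0.06 (adjusted p = 0.102). D3MO was 2.21-fold below D1D2MO, at -1.14 ± 0.06 (adjusted p = 1.31e-05). Further rbp4 probes were found through the probe annotation of the study, which covers transcripts that responded in head, abdomen or tail. These probes did not give 1 answer. Probe 3 showed 0.86 ± 0.05 in D1D2MO, -0.16 ± 0.06 in D3MO and -1.02 ± 0.06 between the knockdowns, and was called in the same comparisons (adjusted p = 1.76e-05 in D1D2MO). Probe 2 was called in none. It showed 0.12 ± 0.06 in D1D2MO (limma, adjusted p = 0.244) and -0.43 ± 0.07 in D3MO (adjusted p = 0.00261). Between the knockdowns it gave -0.55 ± 0.07 (adjusted p = 0.000654). The last 2 differences were below the fold threshold. The mean over the 3 rbp4 probes was 0.66 in D1D2MO, -0.25 in D3MO and -0.90 between the knockdowns.

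cpn1 encodes the catalytic subunit of carboxypeptidase N, a plasma enzyme from the liver that trims kinins and complement peptides. It is the member that is not a carrier. cpn1 was higher in D1D2MO by 0.83 ± 0.06, or 1.78-fold (adjusted p = 3.26e-05). In D3MO it was the only one of the 7 probes above SCMO, at 0.39 ± 0.06 with an interval of 0.24 to 0.53 (adjusted p = 0.00305), and this was below the fold threshold. The direct comparison gave -0.44 ± 0.06, a 1.36-fold lower level in D3MO (adjusted p = 0.00127), which was not called. The D3MO estimate of cpn1 lay 0.79 ± 0.09 from that of afp4 probe 1, with an interval of 0.59 to 0.99 for the size of this gap, taking the errors of both probes as independent.

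fabp1b.1 encodes a fatty acid-binding protein of enterocytes, the lipid-absorbing cells of the intestine. It had the smallest change in D1D2MO among the carrier genes, at 0.60 ± 0.06 or 1.52-fold (adjusted p = 0.000201), and lay just above the fold threshold. In D3MO it stood at -0.13 ± 0.06 (adjusted p = 0.161). D3MO was 1.66-fold below D1D2MO, at -0.73 ± 0.06 (adjusted p = 0.000112). In the reference annotation fabp1b.1 lies next to fabp1b.2, a gene of the same family. Whether the probe separates the transcripts of both was not tested.

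The order of the changes in D1D2MO was apoa1a, rbp4, apobb.1, cpn1, afp4 and fabp1b.1. The place of rbp4 rests on probe 1. By the mean of its 3 probes, 0.66, it would stand between afp4 and fabp1b.1, and probe 2 alone, at 0.12, would stand last. By probe 1, apoa1a exceeded rbp4 by 0.33 ± 0.08 (95% confidence interval 0.15 to 0.51). No other neighbours in this order differed beyond their error, since the interval of each difference covered 0. rbp4 exceeded apobb.1 by 0.16 ± 0.09, and apobb.1 exceeded cpn1 by 0.01 ± 0.09. In the direct comparison of the knockdowns, apoa1a differed from rbp4 probe 1 by -0.60 ± 0.09, and fabp1b.1 from cpn1 by -0.29 ± 0.09. The neighbours between rbp4 and fabp1b.1 did not differ beyond their error. These errors treat the probes as independent although they were read on the same arrays.

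In D3MO vs SCMO the fold threshold alone kept 4 of 7 probes from being called. apobb.1, rbp4 probe 1 and fabp1b.1 missed the adjusted p threshold as well. By limma's adjusted p alone, 3 of 7 probes were lower (apoa1a and both afp4 probes) and 1 was higher (cpn1). On that rule 14.9% of all probes were lower and 15.6% higher. At an unadjusted p below 0.05 the count was 5 of 7, against 41.9% of all probes. Between the knockdowns, 7 of 7 probes were lower in D3MO by adjusted p alone, against 17.3% of all probes. Their calls in D1D2MO vs SCMO favoured that count in advance. The fold change of cpn1 was the only one in that comparison that fell short of the threshold.

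Signal of the carrier gene probes was mostly low. The mean log2 intensity over both channels and all arrays was 11.87 for rbp4 probe 1. For the other probes it lay between 6.79 for fabp1b.1 and 7.70 for cpn1, while the 995 called probes ranged from 6.52 to 15.72 with a median of 9.12. Of these 995 probes, at most 159, or 16%, were dimmer than any of the 6 low probes, and only 7 were dimmer than fabp1b.1. A probe near background understates fold changes. Local background was not analysed here, and intensities of different probes cannot be compared as transcript levels.

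Other genes of the same organs were taken from 4 lists (lipoproteins and yolk lipid transport, liver-secreted plasma proteins, liver enzymes with liver fatty acid binding, and intestine). Of 64 such genes besides the carrier genes, 14 could be named on the array. Names came from the called lists and from the probe annotation of the study, both of which hold responding probes, so uncalled genes are largely missing. The annotation covers responses in head, abdomen or tail, so a gene named through it alone need not be called in the tail. By the brightest probe, 8 of 14 were higher in D1D2MO and 0 were lower, with a median of 0.61. At an unadjusted p below 0.05, 13 were higher and 0 lower in this comparison (limma), a rule on which 20% of all probes were higher. Calls were made for 2.35% of all probes, and since names came from responding probes nothing is read from these counts. In D3MO 2 were higher and 1 was lower, with a median of -0.03, where 1.4% of all probes were called higher and 0.579% lower. Between the knockdowns 9 of 14 were lower in D3MO and 0 higher, with a median of -0.67. At an unadjusted p below 0.05 those counts were 12 lower and 1 higher. Of all probes, 2.28% were called lower in this comparison and 23.6% were lower at an unadjusted p below 0.05.

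Among the lipoprotein genes, apoc1, an apolipoprotein of several particle types, was close to apoa1a in every comparison. It was higher in D1D2MO by 1.33 ± 0.06, stood at -0.57 ± 0.07 in D3MO, and gave -1.90 ± 0.07 between the knockdowns (limma, adjusted p = 2.00e-06). Its second, dimmer probe gave 0.65, -0.18 and -0.83. apoeb, an apolipoprotein E that is also expressed in larval skin and fin, differed from this pattern. It was higher in D1D2MO by 0.74 ± 0.07, stood at 0.32 ± 0.07 in D3MO, and its difference of -0.42 between the knockdowns was not called. A further apoeb probe outside the called lists gave 0.26, 0.32 and 0.05.

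The plasma proteins divided. tfa, which encodes transferrin, the iron carrier of plasma, was higher in D1D2MO by 1.13 ± 0.08 and stood at -0.38 ± 0.09 in D3MO. Between the knockdowns it gave -1.51 ± 0.09 (adjusted p = 1.65e-05) and held rank 7 from the bottom of all probes, close to apoa1a. serpina1, the protease inhibitor alpha-1-antitrypsin, was higher in D1D2MO by 0.79 ± 0.06 and stood at -0.08 ± 0.07 in D3MO, next to apobb.1. The complement gene c6.2 moved otherwise. It was higher in D3MO by 0.71 ± 0.06 and stood at 0.21 ± 0.06 in D1D2MO.

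Liver enzymes showed several patterns. bhmt, which remethylates homocysteine, was higher in both knockdowns, by 1.37 ± 0.08 in D1D2MO and by 0.76 ± 0.09 in D3MO. sult2st2, a sulfotransferase, was higher in D1D2MO by 0.92 ± 0.05 and stood at 0.03 ± 0.06 in D3MO. hao1 and cdo1, enzymes of glycolate and of cysteine breakdown, were each higher in D1D2MO by 0.61, and stood at -0.08 and 0.18 in D3MO. dmgdh, which oxidises dimethylglycine, was not called in D1D2MO, at -0.06 ± 0.05, and was lower in D3MO, at -0.87 ± 0.06. Between the knockdowns it gave -0.81 ± 0.06 (limma, adjusted p = 3.63e-05), the same direction as the carrier gene probes.

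fabp10a, the liver fatty acid-binding protein that defines larval hepatocytes, was called in no comparison. It stood at 0.24 ± 0.06 in D1D2MO, 0.36 ± 0.07 in D3MO and 0.12 ± 0.07 between the knockdowns. Against SCMO its adjusted p was 0.0267 in D1D2MO and 0.00505 in D3MO (limma), so both differences were only below the fold threshold. vil1, the villin of the enterocyte brush border, stood at 0.44 ± 0.06 in D1D2MO and 0.04 ± 0.06 in D3MO, and was also called in no comparison. In D1D2MO its adjusted p was 0.000828 (limma), and the difference was below the fold threshold. None of the 12 genes of the pancreas list had a named probe, so none was analysed here.

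**Figure D2:**
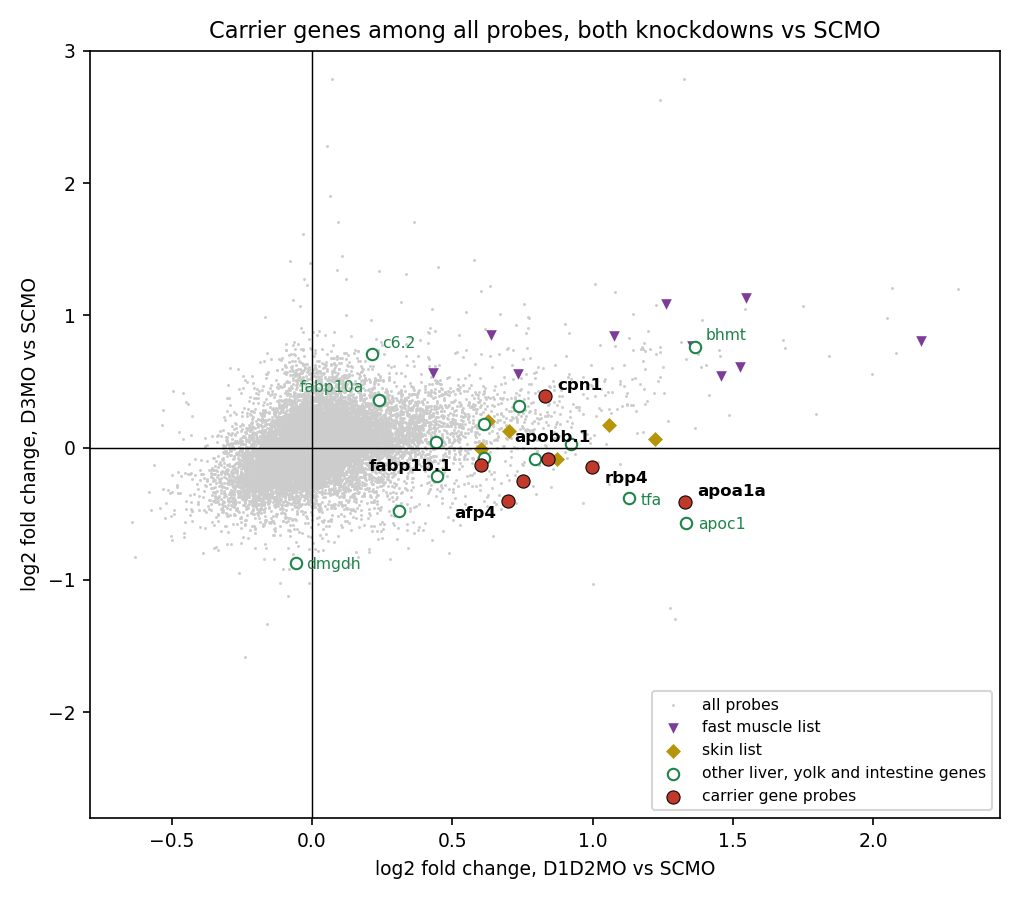
Log2 fold change in D1D2MO vs SCMO (horizontal axis) and in D3MO vs SCMO (vertical axis) for all 19523 probes (grey), the 7 carrier gene probes (red) and the brightest named probe of other liver, yolk and intestine genes (green circles), fast muscle genes (purple triangles) and skin genes (yellow diamonds). Both axes share the SCMO samples, so a point's position is 2 values side by side and not a relation. The carrier gene probes lie to the right of 0.60, and those other than cpn1 lie below 0 on the vertical axis.

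Genes that mark the tail tissue moved as well. All 10 genes of the fast muscle list and all 6 of the skin list were named, and the brightest probes had intensities of 9.42 to 15.57 for the muscle genes that have one and of 9.14 to 14.51 for the skin genes. In D1D2MO, 9 of 10 fast muscle genes were higher by the brightest probe with a median of 1.31, and 6 of 6 skin genes with a median of 0.79. Further probes outside the called lists did not all follow. Those of mylpfb, ckma, ckmb and krt8 gave 0.06, 0.04, 0.02 and 0.07 in D1D2MO, and those of myhz1.1 and krt4 gave 0.50 and 0.43. The other further probes, all in the called lists, were higher in D1D2MO. In D3MO, 7 of 10 fast muscle genes were higher by the brightest probe with a median of 0.79. Further muscle probes did not all follow here either. Those of actc1b, mylpfb and ckma gave 0.46, 0.26 and -0.12, those of myhz1.1 gave 0.28, 0.33 and 0.42, and 1 of tpma gave -0.0034. Those of tnnt3b and 1 of ckmb gave 0.53 and 0.56, also below the fold threshold. Called higher were further probes of tnni2a.4 (0.75), ckmb (0.79 and 0.74) and tpma (1.07). Of all probes, 2.35% were called higher in D1D2MO and 1.4% in D3MO, and the names of these genes too came from responding probes. For the skin list 0 of 6 were called in D3MO, with a median of 0.10 (limma, also 0 by adjusted p alone). Over all probes 1.4% were called higher and 0.579% lower in D3MO, so 0 of 6 is near that share. By adjusted p alone, 15.6% of all probes were higher and 14.9% lower. The carrier gene probes had medians of 0.83 and -0.15 in the same comparisons with SCMO. Examples were the keratins krt91 at 1.22 ± 0.07 in D1D2MO and 0.07 ± 0.08 in D3MO, and krt8 at 0.87 ± 0.09 and -0.08 ± 0.10. The muscle actin actc1b stood at 2.17 ± 0.10 and 0.81 ± 0.10, and the troponin tnni2a.4 at 1.55 ± 0.06 and 1.13 ± 0.07. The part of skin, muscle or abdominal tissue content of the pieces in the carrier gene differences was not tested. In pooled tissue, a different number of cells of a type and a different amount of RNA per cell cannot be told apart.

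**Figure D3:**
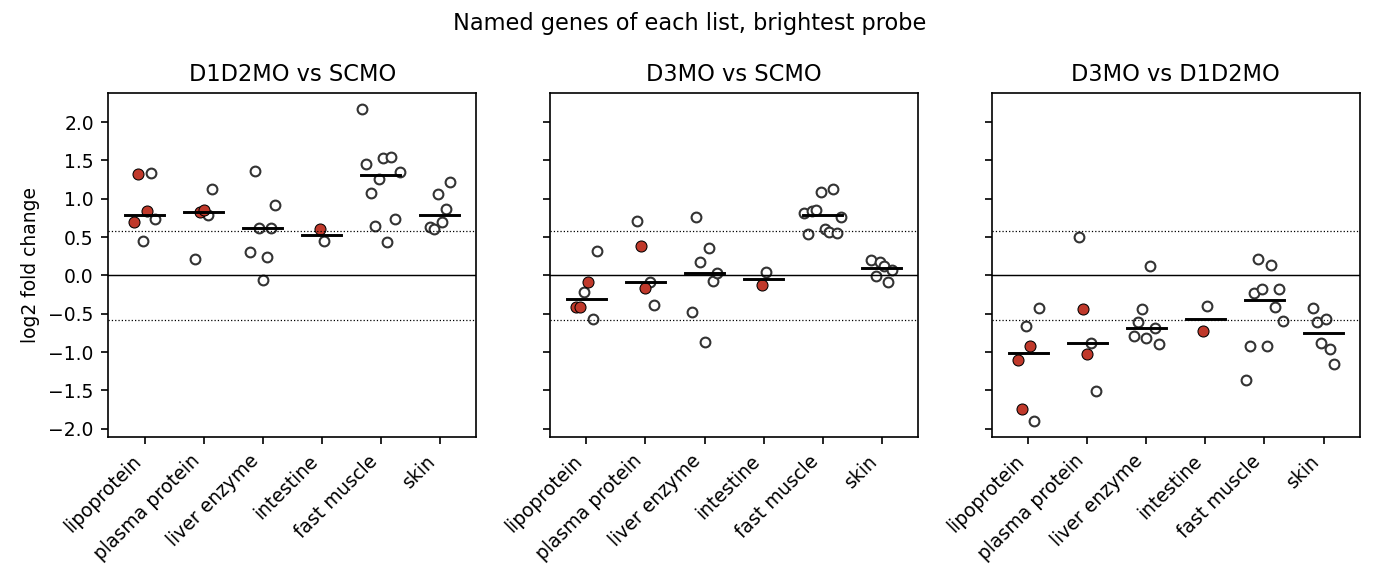
Log2 fold change (vertical axis) of each named gene by its brightest probe, grouped by list (horizontal axis) in the 3 comparisons. Carrier genes are filled red, other genes are open, horizontal bars are list medians and dotted lines the 1.5-fold thresholds. In D1D2MO vs SCMO the 4 liver, yolk and intestine lists, carrier genes included, have medians of 0.52 to 0.83. The intestine list holds 2 named genes. Without the carrier genes, the 14 named genes of these lists have a median of 0.61. The fast muscle and skin lists have medians of 1.31 and 0.79 there. In D3MO vs SCMO the fast muscle list has a median of 0.79 and the medians of the other lists lie between -0.31 and 0.10.

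The genes whose changes were most like those of each carrier gene were sought among the 571 other genes named through RefSeq accessions, by the distance between the log2 fold changes in D1D2MO vs SCMO and in D3MO vs SCMO. Nearest to apobb.1 were krt8 by its brightest probe (distance 0.0323) and serpina1 (0.045). By probe 1, rbp4 was nearest to sparc, which encodes a collagen-binding protein of the extracellular matrix (0.0413). Next to it was tmem38a, a cation channel of the sarcoplasmic reticulum (0.0987). The other rbp4 probes were not used in this search. In D1D2MO and D3MO, probe 3 stood at 0.86 and -0.16, and probe 2 at 0.12 and -0.43. For cpn1 they were vcp, an ATPase of protein degradation, at 0.00351 and the tubulin tuba5 at 0.0078. afp4 by its probe 1 had ahcy at 0.0871 and eif4a1b at 0.115. fabp1b.1 had a gene with no descriptive name at 0.0176 and cfd, complement factor D, at 0.0522. Of the carrier genes, apoa1a stood most apart from the genes searched. Its nearest there were tmem38a at 0.368 and rbp4 probe 1 at 0.424. apoc1 and tfa, named through the probe annotation alone, were outside this search, although both lay close to apoa1a. In D1D2MO and D3MO, apoc1 stood at 1.33 and -0.57 and tfa at 1.13 and -0.38. apoa1a stood at 1.33 and -0.41. With only 2 comparisons, which share the SCMO samples, a short distance says no more than that 2 pairs of values were close.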

How the data were processed

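The authors scanned the arrays with GenePix, removed spots near background on all arrays, corrected background by a normal-exponential model, normalised by loess, and fitted a linear model with limma (version: not given in the sources used here). Each log2 fold change and each mean log2 intensity was taken unaltered from the deposited tables. The authors gave an unadjusted p-value for all 19523 probes, and an adjusted p-value and a score, limma's moderated t, for called probes alone. These columns are the authors' own comparisons, since no value per array was used here, and no refit or omission of an array was possible.

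SE was the log2 fold change divided by t. For other probes t was recovered from p with the 8.72 degrees of freedom implied by called probes. Benjamini-Hochberg adjustment of the p-values of all 19523 probes supplied their adjusted values, and on called probes it came within 0.483% of the deposited values. The recovery was tested on simulated data. Python 3.11.15, numpy 2.4.6, pandas 2.3.3 and scipy 1.17.1 were used. Which arrays and terms the deposited fit held is not settled. The numbers of arrays and pools limit the precision.

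Probes of the called lists were named through RefSeq accessions in assembly GRCz12tu (786 of 995 probes, 572 genes). The probe annotation of the study added names, and all 443 probes named both ways had the same gene. Members and lists were chosen with earlier results of these data known. Named were all members, up to 4 genes per list with the largest change in D1D2MO vs SCMO by the brightest probe, and the 2 genes nearest to each member. c6.2, dmgdh and fabp10a were named after their values were seen. Other thresholds, adjustments, centring and naming were tried as alternatives. A promoter motif search was planned and not run, since no sequence was used here. The result of 1 list gene is not reported here.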

Additional observations from a re-analysis of the deposited data

Results flagged for a closer look

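All 7 carrier gene probes differed between the knockdowns by the direct test of D3MO vs D1D2MO (limma, adjusted p below 0.05 without a fold threshold). The log2 fold changes were -1.74 for apoa1a, -0.93 for apobb.1, -1.11 and -1.0 for both afp4 probes, -1.14 for rbp4, -0.44 for cpn1 and -0.73 for fabp1b.1. On that rule 17.3% of all probes were lower in D3MO than in D1D2MO. The direct comparison equals D3MO vs SCMO minus D1D2MO vs SCMO. All 7 probes were called higher in the latter, so lower values were favoured in advance and the count is a description.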

How the results depend on the processing

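No result changed direction under any alternative run. With a fold threshold of 2, 1 of 7 probes (apoa1a) was called in D1D2MO vs SCMO in place of 7, and a test against a 1.5-fold change called 2 (apoa1a and rbp4). Between the knockdowns both settings called 4 of 7 in place of 6. The share of all probes called under these settings is not given here, so these counts are a description. Without a fold threshold, 4 of 7 probes in place of 0 were called in D3MO vs SCMO. Among the other list genes, 13 in place of 8 were higher in D1D2MO and 4 in place of 1 were lower in D3MO. On that rule 14.9% of all probes were lower and 15.6% higher in D3MO vs SCMO. The share for D1D2MO vs SCMO is not given here, so the count of 13 is a description. With genes named through the called lists alone, 0 other list genes were lower in D3MO, since dmgdh then had no name. With the further rbp4 probes added, 8 of 9 probes were called in D1D2MO vs SCMO and 7 of 9 between the knockdowns. Of all probes, 2.35% were called higher in the former and 2.28% lower in the latter. The added probes came from the study's annotation of probes that responded in head, abdomen or tail, so these counts are a description. Holm adjustment ended the call of fabp1b.1 in D1D2MO. An adjusted p below 0.01 and centring on the median of all probes changed none of the 21 probe results. The mean over probes gave 7 in place of 8 other list genes higher in D1D2MO.

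Leaving out the dimmest probes before the adjustment was planned and not run, because intensities were used only for called probes. Leaving out arrays in turn could not be done without values per array. No paired analysis was possible because the labels give no replicate numbers and the files used hold group comparisons only. Most carrier gene probes were dim, which limits how well small changes are resolved.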
